A study of Homo sapiens with 9 samples.

Results

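The genes described here are 38 interferon-stimulated genes of the type I response, taken by name from the 58336 rows of a table of nascent transcription, and all 38 were found by their Ensembl identifiers. The cells were MEL624, a human melanoma cell line, and the assay was PRO-seq, which maps engaged RNA polymerases by letting them extend their RNA with a labelled base. Libraries came from 3 groups of 3 biological replicates: PCIF1-KO clone 1, PCIF1-KO clone 2 (both knocked out for PCIF1) and control MEL624 cells, which were wild type and carried a random guide RNA. Each knockout group is a single clone, so what is particular to a clone and what follows from the knockout cannot be told apart within a group. The sources name no interferon or other stimulus.

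PCIF1 methylates the adenosine next to the cap of messenger RNA when a transcript starts with that base. Type I interferons bind the receptor IFNAR1/IFNAR2, whose kinases JAK1 and TYK2 phosphorylate STAT2 and other STAT proteins. STAT2 and IRF9 are subunits of ISGF3, which binds the interferon-stimulated response element in promoters of genes such as those described here. Their products bind or degrade viral RNA, restrict entry and assembly of virus, or amplify and end the response, and several of them read the cap of an RNA.

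The table held 1 mean per group, so values carry no standard deviation, no test could be made, and no difference can be set against replicate error. A level is the authors' mean normalized count per kb of gene length. A mean normalized count is that level multiplied by the length, and it shows how much signal lies behind a value. Ratios are log2 ratios of mean normalized counts after adding 1 to each, which understates the ratio of genes with few counts. They were compared for the 17149 genes that averaged 10 or more counts across groups, 32 of the 38 among them.

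Markers of the labelled lineage were sparse. Of 8 melanocyte lineage markers, 2 reached that count: MITF, the lineage transcription factor, had 19.77, 36.09 and 23.47 counts per kb in clone 1, clone 2 and control, and PMEL had 5.47, 6.09 and 12.41. TYR was listed at 0 in all 3 groups, MLANA had 0.28, 0.66 and 0.11 counts per kb, and SOX10 was listed at 0 in clone 1, 1.64 in clone 2 and 0 in control. The 7 immune cell markers summed to 5.0, 4.8 and 3.4 counts per kb, with none compared. PCIF1 had 83.74, 74.33 and 74.39 counts per kb in clone 1, clone 2 and control, which does not check the labels, since a level over the whole gene does not show an edit.

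The promoters of these genes show what they share, and the sequences below are those of the 3 members with an entry that stood furthest above control in both clones. RefSeq promoters on GRCh38.p14 (250 bases before to 50 after the annotated start) were found for 30 of the 38 genes. DHX58, IFIT2, IRF7, MX2, OAS2, OASL, TRIM22 and USP18 had no entry. The core of the interferon-stimulated response element was searched as GAAA, any 2 bases and GAAA again, on either strand, with overlapping matches counted. It was in a promoter of 20 of the 30 genes (66.7%), against 1195 of 27305 genes with a promoter entry (4.38%). The longer form, which is that core followed by CT, was in 13 of 30 (43.3%) and in 0.322% of all. The gamma-activated site TTCNNNGAA, which reads the same on both strands, was in 10 of 30 (33.3%) and in 9.38%. These matches are letters in a window, not measured binding. In the 250 bases before the start that follow, 5′ to 3′ along each gene's strand, capitals mark the core, which begins with TTTC where it lies on the other strand.
IFIT1 (chr10:89392373-89392622, plus strand): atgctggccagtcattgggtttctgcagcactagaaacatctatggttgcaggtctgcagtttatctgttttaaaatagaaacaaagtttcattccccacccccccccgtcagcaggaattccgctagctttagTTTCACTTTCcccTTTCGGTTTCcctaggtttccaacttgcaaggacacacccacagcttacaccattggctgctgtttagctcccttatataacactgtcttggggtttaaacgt
IFI44L (chr1:78620198-78620447, plus strand): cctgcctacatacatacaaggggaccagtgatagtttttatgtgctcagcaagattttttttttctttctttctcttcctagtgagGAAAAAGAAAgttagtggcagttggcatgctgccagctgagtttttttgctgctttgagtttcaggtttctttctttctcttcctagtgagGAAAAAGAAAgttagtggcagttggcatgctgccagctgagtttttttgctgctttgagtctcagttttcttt
HERC5 (chr4:88456869-88457118, plus strand): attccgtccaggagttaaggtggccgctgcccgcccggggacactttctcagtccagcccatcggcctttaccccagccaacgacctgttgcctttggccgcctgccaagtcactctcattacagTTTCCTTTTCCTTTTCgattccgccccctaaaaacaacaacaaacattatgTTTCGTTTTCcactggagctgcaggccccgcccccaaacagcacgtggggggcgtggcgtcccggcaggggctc

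The 3 sequences hold the core in different arrangements. IFIT1 has it on the opposite strand from base -116 to -107 and again from -103 to -94, counted from the start with no base 0. IFI44L has a copy from -164 to -155 and another from -73 to -64, each within an exact direct repeat of 85 bases whose copies begin at -189 and -98. HERC5 has 3 matches on the opposite strand, of which 2 overlap between -125 and -110. A pair of genes with the highest levels among the members differ in the element they carry, shown here with 10 bases on each side of the match. The match is the core in IFI6, shown at 2 of its 3 places, and the gamma-activated site in IRF1, in which no core was found.
IFI6 (chr1:27672329-27672358, minus strand): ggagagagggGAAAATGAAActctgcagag
IFI6 (chr1:27672266-27672295, minus strand): gcagagtgcaGAAATAGAAActccgacagg
IRF1 (chr5:132490879-132490907, minus strand): acagcctgatTTCCCCGAAatgacggcac

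Because PCIF1 acts on transcripts that start with A, the first transcribed base of the RefSeq entries was also read. It was A in an entry of 14 of the 30 members (46.7%) and of 49.7% of the 27305 genes. Among compared members, the 11 with an A start had a median log2 ratio of 0.10 in clone 1 and 0.16 in clone 2, and the 14 without one had 0.24 and 0.15. The 17 compared members with the core had medians of 0.16 and 0.13, and the 8 without it had 0.25 and 0.17. With the longer form the medians were 0.19 and 0.32 over 11 members, and without it 0.18 and 0.04 over 14. With the gamma-activated site they were 0.13 and -0.09 over 8 members, and without it 0.41 and 0.36 over 17. The direction of these splits thus depended on the letters searched, none was tested, and annotated starts need not be those used in these cells.

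**Figure D1:**
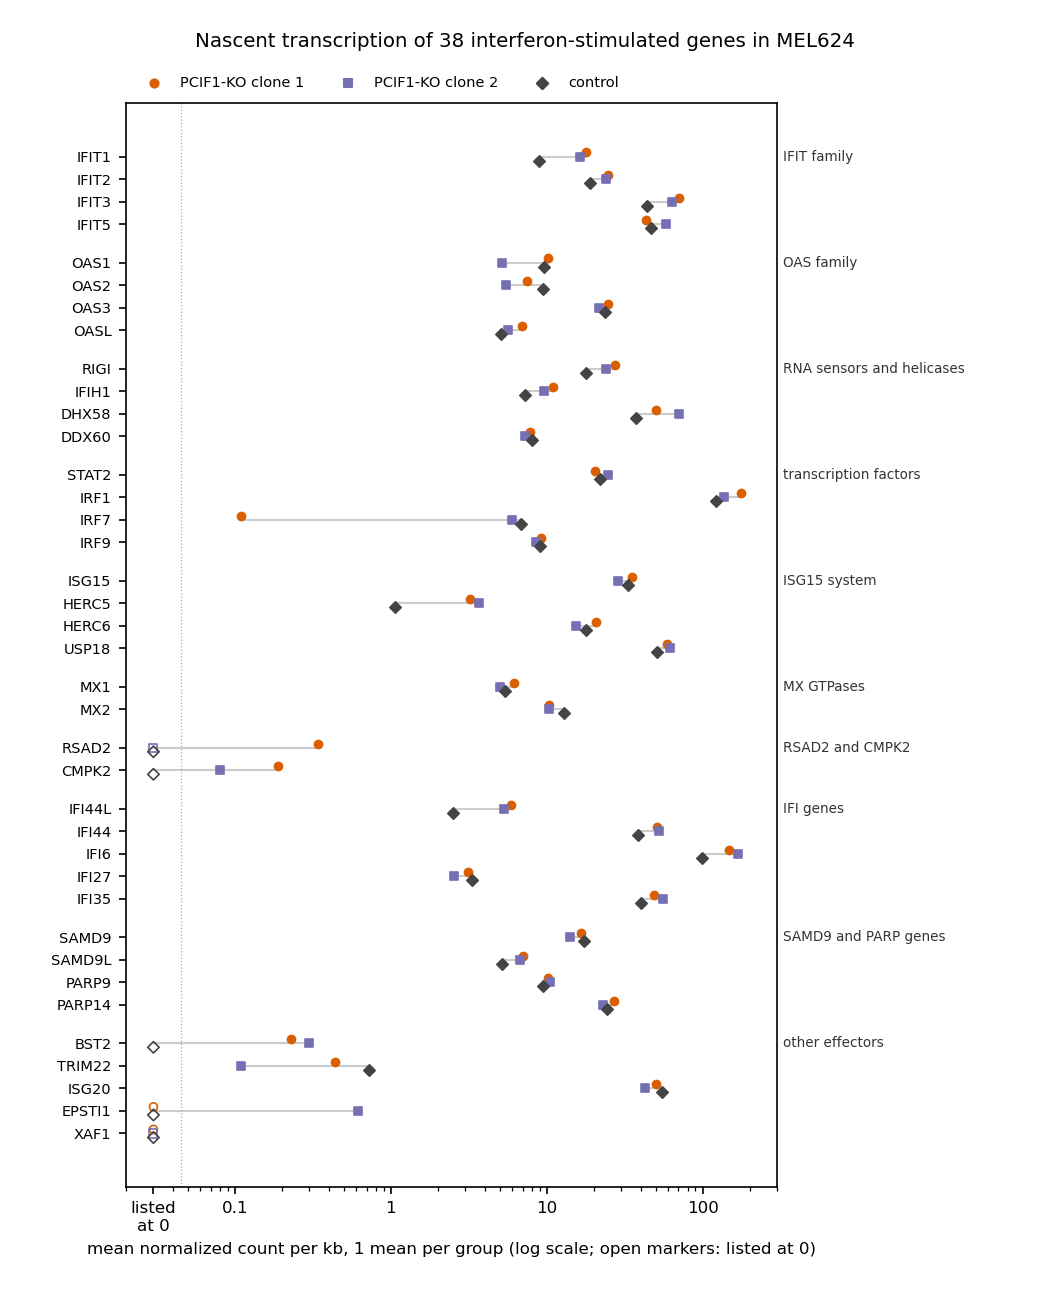
Levels of the 38 genes, grouped by role. Each marker is the authors' mean normalized count per kb of 1 group on a log axis (circle, clone 1; square, clone 2; diamond, control), and open markers are listed at 0. Levels span from 0 to 175.48 counts per kb, and the clone 1 marker of IRF7 stands apart from the other 2.

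Most of the genes had some signal in every group, at modest levels. Above 0 in all 3 groups were 33 of the 38, and the like share of all genes is not given here. A value above 0 can rest on almost no signal, as for TRIM22 in clone 2 (mean count 0.7) and IRF7 in clone 1 (0.3). The median level of the 32 compared members was 19.1 counts per kb in clone 1, 16.0 in clone 2 and 17.5 in control, against 30.0, 30.1 and 30.0 for all genes compared. IRF1, IFI6, IFIT3, USP18 and DHX58 had the highest mean levels, in that order. Summed over all 38, mean normalized counts came to 4613.7 in clone 1, 4245.1 in clone 2 and 3839.7 in control, of which IRF1 alone gave 1368.6, 1077.0 and 954.5. In bulk samples, more cells with an active gene and more transcription per cell cannot be told apart.

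The 6 genes below the count floor were near silent. XAF1, a pro-apoptotic factor, was listed at 0 in every group. RSAD2, which encodes the antiviral enzyme viperin, had 0.34 counts per kb in clone 1 and was listed at 0 in clone 2 and control. Its neighbour CMPK2, a nucleotide kinase gene transcribed from the opposite strand, had 0.19, 0.08 and 0. BST2, the membrane tether that holds budding virions, had 0.23 in clone 1, 0.30 in clone 2 and 0 in control. EPSTI1 was listed at 0 in clone 1 and control and at 0.62 in clone 2. TRIM22, an antiviral ubiquitin ligase gene, had 0.44, 0.11 and 0.72 counts per kb in clone 1, clone 2 and control. RSAD2 and BST2 are strongly interferon-induced in many cell types.

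Of the 32 compared members, 23 had a log2 ratio above 0 in clone 1, where 49.2% of all genes compared did, and 18 in clone 2, where 49.5% did. Their median log2 ratio was 0.20 in clone 1 and 0.16 in clone 2, against medians of 0.00 in size over all genes compared. After subtraction of the median of 20 neighbouring genes, it was 0.18 in clone 1 and 0.03 in clone 2. The quartiles of the members were -0.05 and 0.45 in clone 1, beside -0.19 and 0.21 for all genes, and -0.19 and 0.42 in clone 2, beside -0.24 and 0.27. The control mean is shared by both ratios, which are therefore not independent of each other.

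In clone 1, 2 members were at least 2-fold higher than control (2.27% of all genes compared) and 1 was at least 2-fold lower (1.32%). In clone 2, 2 were at least 2-fold higher (3.34%) and none was at least 2-fold lower (1.9%). The 2 higher genes were IFI44L and HERC5 in both clones, and the lower one was IRF7 in clone 1. All 3 had mean counts under 50, so with a floor of 50 counts, or of 10 counts per kb, none of these calls was left. With a pseudocount of 5 the clone 2 count was 1. HERC5 passed the floor of 10 counts only through the clones, where it is high. IRF7 passed it only through clone 2 and control, where it is high. Among all genes with mean counts from 10 to 50, 5.16% were at least 2-fold higher in clone 1 and 6.86% in clone 2. At least 2-fold lower in clone 1 were 3.34% of them. At a size of 1.5-fold, 6 members were higher in clone 1 (6.93% of all genes) and 1 was lower (4.94%), while 5 were higher in clone 2 (9.76%) and 2 were lower (7.23%). Low counts scatter more: at mean counts from 10 to 50, 13.1% of genes were at least 1.5-fold higher in clone 1, as were 3 of 12 members, and 15.3% in clone 2, as were 2 of 12. At 50 to 200 counts the shares were 5.32% in clone 1, beside 3 of 16 members, and 8.73% in clone 2, beside 2 of 16. From 200 counts up they were 2.84%, beside 0 of 4, and 5.56%, beside 1 of 4.

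**Figure D2:**
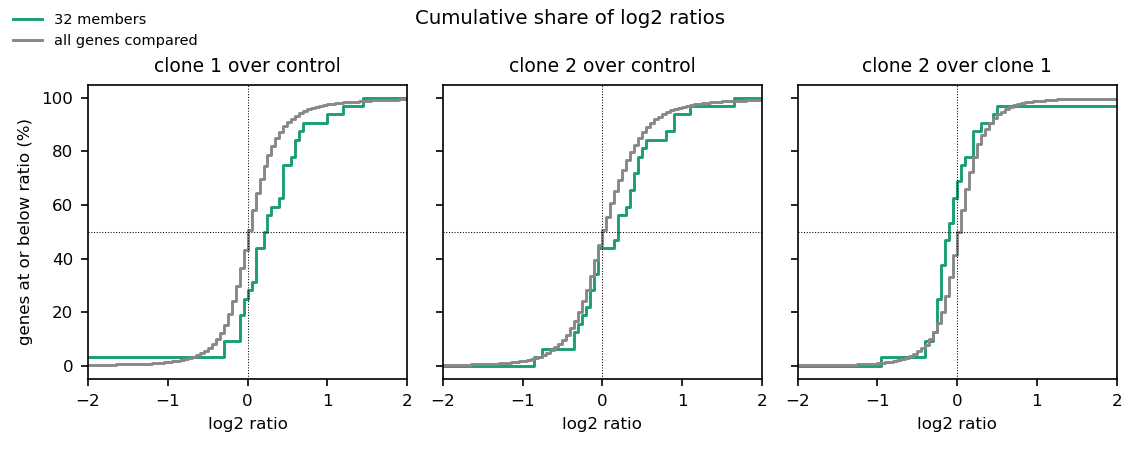
Cumulative share of log2 ratios for the 32 compared members (green) and all 17149 genes compared (grey) in 3 comparisons. The members' median is 0.20 in clone 1 over control, 0.16 in clone 2 over control and -0.13 in clone 2 over clone 1, while the median of all genes lies at 0 in each panel.

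The IFIT genes encode proteins that bind the 5′ end of foreign RNA, IFIT1 being the one that reads a cap without ribose methylation. They lie side by side on chromosome 10, from 89283694 to 89421605 (GRCh38). IFIT1 had 17.82 counts per kb in clone 1, 16.44 in clone 2 and 8.93 in control, and IFIT3, which stabilizes IFIT1, had 70.72, 63.44 and 44.09. IFIT2 had 24.65, 23.87 and 18.91. These 3 genes stood above control in both clones, whereas IFIT5 had 43.58, 58.46 and 46.92 and was above control in clone 2 alone. A noncoding gene overlaps 12.1% of the exon bases of IFIT2 on the same strand in GENCODE 44.

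For IFIT1 the log2 ratio was 0.98 in clone 1 and 0.86 in clone 2, for IFIT3 0.68 and 0.52, for IFIT2 0.38 and 0.33, and for IFIT5 -0.11 and 0.32. The 20 nearest compared genes that are no members, 10 on each side, had a median of 0.03 in clone 1 and 0.50 in clone 2 around IFIT1. In clone 2 this stretch of chromosome 10 was thus higher as a whole, and relative to the neighbours' median IFIT1 was at 0.36, IFIT3 at 0.02, IFIT2 at -0.18 and IFIT5 at -0.19. In clone 1 the same differences were 0.94, 0.64, 0.36 and -0.14. What part the stretch has in the IFIT values of clone 2 was not tested.

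**Figure D3:**
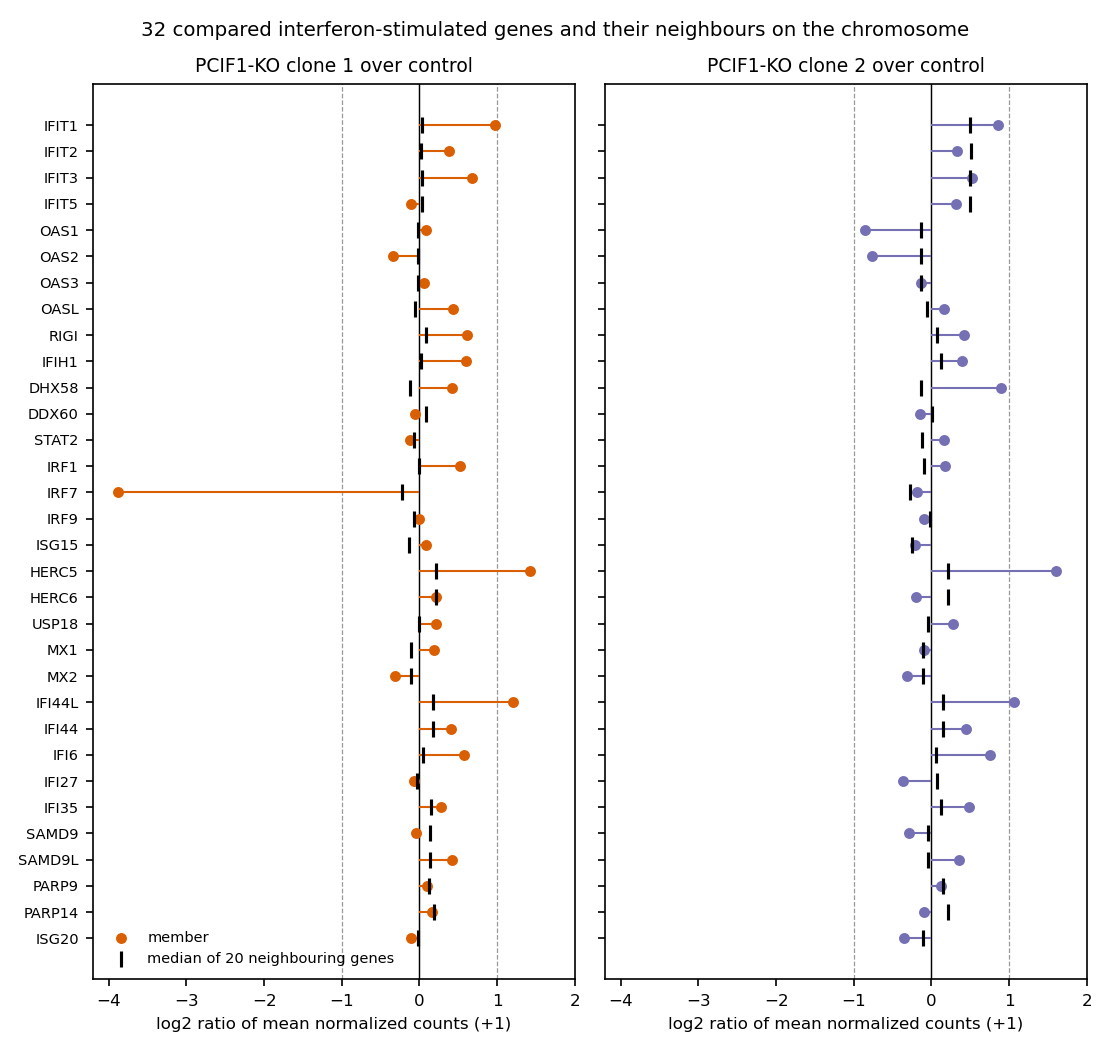
Log2 ratios over control of the 32 compared members in clone 1 (left) and clone 2 (right), as points, with the median of the 20 neighbouring genes as a black tick and 2-fold as dashed lines. HERC5 and IFI44L lie past 1 in both panels, IRF7 at -3.88 in clone 1, and the ticks of the IFIT genes lie at 0.50 to 0.51 in clone 2.

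IFI44L and IFI44 are neighbouring paralogs on chromosome 1 that are widely used as markers of the response, and IFI6 encodes a membrane protein with antiviral activity against flaviviruses. IFI44L (ENSG00000137959; chromosome 1, 78619902 to 78646145) had 5.87 counts per kb in clone 1, 5.33 in clone 2 and 2.50 in control, from mean counts of 60.1, 54.6 and 25.6. Its log2 ratios were 1.20 and 1.06. IFI44 had 51.11, 52.26 and 38.45 counts per kb, with ratios of 0.41 and 0.44. Around both genes the neighbours' median was 0.17 in clone 1 and 0.15 in clone 2, so IFI44L stood further above its surroundings than IFI44.

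IFI6 had the second highest level of all members, 148.62 counts per kb in clone 1, 167.85 in clone 2 and 98.89 in control. Its log2 ratios were 0.58, just under the 1.5-fold size, and 0.76, with neighbours at 0.04 and 0.06. In GENCODE 44 the noncoding gene LINC02574 overlaps 23.1% of the exon bases of IFI6 on the same strand, and reads of the pair may not be separable. IFI35 had 48.79, 55.86 and 40.03 counts per kb in clone 1, clone 2 and control, and IFI27, often the most induced gene in infected tissue, had 3.14, 2.53 and 3.31. Of these 5 genes, IFI27 was the one not above control in either clone.

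The ISG15 system attaches the ubiquitin-like protein ISG15 to other proteins: HERC5 is the main ligase in human cells, HERC6 its relative next to it on chromosome 4, and USP18 removes ISG15 and blocks the receptor. HERC5 (ENSG00000138646; chromosome 4, 88457119 to 88506163) had 3.24 counts per kb in clone 1, 3.68 in clone 2 and 1.07 in control. These rest on mean counts of 15.4, 17.5 and 5.1, and the gene passed the floor only through the clones. Its log2 ratios of 1.43 and 1.60 were the highest among the 32 compared members, and its neighbours' medians were 0.22 and 0.21.

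ISG15 itself had 35.19, 28.46 and 32.99 counts per kb in clone 1, clone 2 and control, and HERC6 had 20.57, 15.46 and 17.73. USP18 had 58.86, 61.93 and 50.77. None of these 3 was 1.5-fold off in clone 1 (6.93% of all genes compared higher, 4.94% lower) or clone 2 (9.76% and 7.23%). The enzymes that feed the pathway were read from another list: UBE2L6, the conjugating enzyme gene, had 49.19, 59.72 and 32.61 counts per kb, and UBA7, the activating enzyme gene, had 4.66, 2.31 and 7.25. UBE2L6 thus stood above control in both clones (0.59 and 0.86) and UBA7 below it (-0.61 and -1.56).

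The cytosolic sensors recognize RNA without a mature cap or with long double strands: RIGI and IFIH1 (MDA5) signal through MAVS, and DHX58 (LGP2) tunes them. RIGI had 27.47 counts per kb in clone 1, 24.01 in clone 2 and 17.94 in control, and IFIH1 had 11.04, 9.55 and 7.21. DHX58 had 50.22, 70.11 and 37.48. These 3 genes were above control in both clones, with log2 ratios of 0.61 and 0.42 for RIGI, 0.60 and 0.39 for IFIH1, and 0.42 and 0.90 for DHX58. The neighbours' medians around DHX58 were -0.12 and -0.13. DDX60, a helicase gene proposed to assist RIGI, had 7.76, 7.26 and 8.07 counts per kb and was not above control. In GENCODE 44, an overlapping gene on the same strand shares 43.2% of the exon bases of RIGI.

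OAS1, OAS2 and OAS3 encode enzymes that make the activator of RNase L on double-stranded RNA, and OASL is a relative without that activity. On chromosome 12, OAS1, OAS3 and OAS2 lie together from 112905856 to 113011723. OAS1 had 10.21 counts per kb in clone 1, 5.17 in clone 2 and 9.56 in control, from mean counts of 50.5, 25.6 and 47.3. OAS2 had 7.43, 5.50 and 9.45 counts per kb. In clone 2 their log2 ratios were -0.86 and -0.76, the lowest of the compared members there, beside a neighbours' median of -0.13. In clone 1 they were 0.09 and -0.34. OAS3 between them had 24.66, 21.64 and 23.63 counts per kb, within 1.5-fold in both clones, and OASL had 6.94, 5.68 and 5.07. At mean counts under 50, at least 1.5-fold lower values in clone 2 were common, with 15.8% of all genes in that range.

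The transcription factors of the response shared no single direction. STAT2 had 20.34, 24.73 and 22.12 counts per kb in clone 1, clone 2 and control, and IRF9 had 9.15, 8.54 and 9.12, so both ISGF3 subunits among the members were within 1.5-fold of control. IRF1, which activates interferon genes and many of the same targets, had the highest level of the members at 175.48, 138.09 and 122.39. Its log2 ratios were 0.52 and 0.17. IRF1-AS1 overlaps 22.9% of its exon bases on the opposite strand, and the strand setting of the counting is not given in the sources used here.

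IRF7, the factor that amplifies the interferon-alpha genes, was nearly silent in clone 1. IRF7 (ENSG00000185507; chromosome 11, 612553 to 615983, minus strand) had 0.11 counts per kb there, 5.97 in clone 2 and 6.83 in control, from mean counts of 0.3, 15.7 and 17.9. The gene passed the floor only through clone 2 and control. The log2 ratio was -3.88 in clone 1 and -0.18 in clone 2. It moved to -4.55 with a pseudocount of 0.5 and to -2.12 with one of 5, so its size is not well set at these counts. The flanking gene PHRF1 had mean counts of 206.6, 181.1 and 221.8, and DRD4 on the other side had 22.1, 9.8 and 13.1. Around IRF7 the neighbours' medians were -0.23 in clone 1 and -0.28 in clone 2, so the low value was not shared by the surrounding genes.

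The remaining effectors were within 1.5-fold of control, as were most genes compared. MX1, a dynamin-like GTPase gene, had 6.17, 5.05 and 5.38 counts per kb in clone 1, clone 2 and control, and MX2, which restricts HIV, had 10.38, 10.31 and 12.88. These GTPases lay on either side of control in clone 1. SAMD9, a restriction factor for poxviruses, had 16.67, 14.12 and 17.26 counts per kb, and its paralog SAMD9L had 7.01, 6.73 and 5.20. PARP9 had 10.19, 10.46 and 9.53, and PARP14, a mono-ADP-ribosyltransferase gene, had 27.07, 22.84 and 24.26. ISG20, an exonuclease gene, had 50.58, 42.80 and 54.64. None of these 7 genes was 1.5-fold off in clone 1 (6.93% of all genes compared higher, 4.94% lower) or clone 2 (9.76% and 7.23%).

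Compared with each other directly, the clones shared no control mean. Clone 2 had the lower value at 22 of the 32 members, with a median log2 ratio of -0.13 over clone 1, and 10 members were above 0 (50.0% of all genes compared). IRF7 was the single member at least 2-fold higher in clone 2 (1.05% of all genes) and also the single one at least 1.5-fold higher (4.37%). It passed the floor only through clone 2 and control, where it is high. No member was at least 2-fold lower (0.933%), and OAS1 alone was at least 1.5-fold lower (3.8%), at -0.95. DHX58 and IFIT5 were at 0.48 and 0.42. HERC5 was at 0.17, IFI44L at -0.14, IFIT1 at -0.11 and IFI6 at 0.17. Among members with mean counts from 10 to 50, 11 of 12 lay inside the central 95% of all genes of that range (-1.01 to 1.05), from 50 to 200 counts 16 of 16 did (-0.50 to 0.63), and from 200 counts up 4 of 4 did, about the share that such a range holds by construction.

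Upstream of these genes, the interferon genes other than IFNE were barely transcribed. Of 21 ligand genes, 16 were listed at 0 in all 3 groups. IFNB1 was listed at 0 in clone 1, and at 0.41 counts per kb in clone 2 and 0.40 in control. The 2 interferon-alpha genes not listed at 0 throughout were IFNA2, at 0.30 counts per kb in clone 2 alone, and IFNA5, at 0.34 in clone 2 and 1.16 in control. The one ligand above the floor was IFNE, the interferon constitutively made by some epithelia, with 34.85 counts per kb in clone 1, 21.44 in clone 2 and 50.34 in control. It stood below control in both clones, at -0.52 and -1.21. Whether IFNE lies within an intron of another gene, whose reads would then be counted with it, was not checked.

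Of 10 receptor and JAK-STAT genes, all compared, 4 stood above control in clone 1 (median -0.02) and 5 in clone 2 (median 0.03). Among all genes compared, 49.2% and 49.5% did. The receptor gene IFNAR1 had 17.41, 17.20 and 17.20 counts per kb in clone 1, clone 2 and control, and its partner IFNAR2 had 2.41, 3.24 and 3.51. JAK1 had 39.19, 41.07 and 34.19, TYK2 had 36.87, 33.37 and 36.87, and JAK2, a kinase of the interferon-gamma receptor, had 33.21, 33.34 and 29.88. No gene of the list was 2-fold off in clone 1 or clone 2. Of all genes compared, 2.27% were at least 2-fold higher and 1.32% lower in clone 1, and 3.34% and 1.9% in clone 2. IL10RB, a receptor chain of interferon lambda, stood furthest from control, at -0.76 and -0.52, with 2.56, 3.07 and 4.49 counts per kb.

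**Figure D4:**
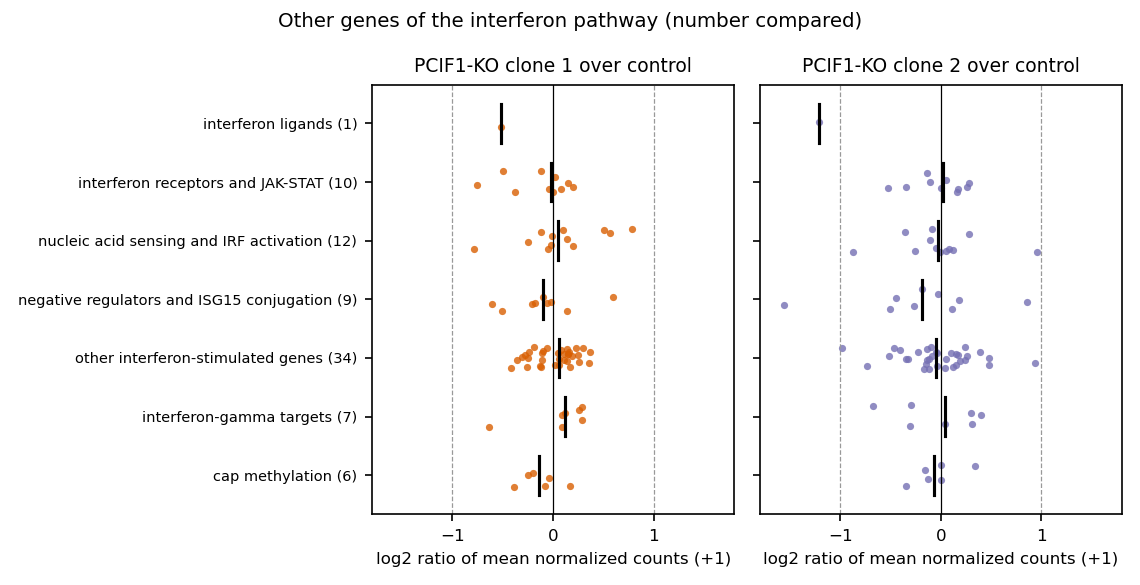
Log2 ratios over control of compared genes in 7 other lists of the pathway, in clone 1 (left) and clone 2 (right), with each list's median as a black bar and 2-fold as dashed lines. The medians of lists with at least 6 genes lie between -0.19 and 0.12, and UBA7 and IFNE lie past 2-fold in clone 2.

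Of 18 genes of nucleic acid sensing and IRF activation, 12 were compared. Of these, 6 stood above control in clone 1 (median 0.04) and 5 in clone 2 (median -0.03), beside 49.2% and 49.5% of all genes. In neither clone was any of them at least 2-fold higher (2.27% and 3.34% of all genes) or lower (1.32% and 1.9%). TRIM25, which activates RIGI, had 111.74, 112.04 and 121.30 counts per kb in clone 1, clone 2 and control, and TBK1, the kinase of IRF3, had 63.17, 54.46 and 65.39. MAVS, the adaptor of RIGI and IFIH1, had 37.08, 35.15 and 64.17. It stood at -0.79 and -0.87, within a stretch of chromosome 20 whose neighbours' medians were -0.63 and -0.80. The DNA sensor gene CGAS had 0.12 counts per kb in clone 1, was listed at 0 in clone 2 and had 0.17 in control, while its partner STING1 had 45.42, 27.19 and 26.28.

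A second list of 38 interferon-stimulated genes outside the members gave 34 compared genes. Their medians were 0.06 in clone 1 and -0.04 in clone 2, with 20 and 15 above control (49.2% and 49.5% of all genes compared). None was at least 2-fold higher (2.27% and 3.34% of all genes) or lower (1.32% and 1.9%) in either clone. LGALS3BP, a secreted glycoprotein gene, had the most signal at 244.92, 241.63 and 222.01 counts per kb in clone 1, clone 2 and control. The antiviral zinc finger gene ZC3HAV1 had 83.45, 76.10 and 74.23, and ZNFX1, an RNA helicase gene, had 72.49, 68.25 and 75.44. The negative regulators and ISG15 enzymes had medians of -0.10 and -0.19 over 9 genes. Above control were 2 of them in clone 1 (49.2% of all genes) and 3 in clone 2 (49.5%). SOCS3, which blocks JAK kinases, had 366.91, 401.27 and 371.87 counts per kb, its relative SOCS1 242.00, 208.14 and 251.54, and the phosphatase gene PTPN2 65.66, 68.88 and 93.81. PTPN2 stood at -0.51 in clone 1 and -0.45 in clone 2, within a stretch of chromosome 18 whose neighbours' medians were -0.34 and -0.31.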

How the data were processed

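PRO-seq was measured in 9 libraries, 3 per group. The deposited signal is, per the file headers, a normalized count per kb of gene length that the authors averaged over each group's replicates. Its header has 6 names and its rows 5 cells, and the missing cell was taken to be that of the gene symbol. Tools named in the submitters' processing notes, with no role or order, are DESeq2, featureCounts, Bowtie 1.2.2 and cutadapt 1.14, and the builds are GRCh38.p12, dm3 and hg38. Whether the Drosophila spike-in set the scaling, and which strand was counted, is not given in the sources used here. Depth is unknown for single libraries. Symbols, positions and exon overlaps are from GENCODE release 44 (GRCh38), and 582 of 58336 identifiers had no symbol there. The authors' lengths lay within 5% of the merged exon length of that release for 16 of the 38 genes, so the lengths follow another annotation or another definition of length.

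The design planned a test if values per library were present and a description otherwise, and the description applied. Levels were multiplied by length, and log2 ratios were taken with a pseudocount of 1 over genes averaging 10 or more counts. Genes 2-fold or 1.5-fold off were counted beside all genes compared. The fold criterion was tested on simulated data. That simulation held counting noise alone, with no spread between replicates or clones, so it does not bear on such spread here. Full values are given for members whose log2 ratio reached 0.58 in size in a clone, for STAT2, IRF1, IRF7 and IRF9, and for the 5 highest levels; of other lists, for genes at least 2-fold off and the 3 with most counts, and other genes named were chosen after their values were seen. The members and lists were chosen with earlier results of these data known, and 1 gene of a pathway list is not reported here. Python 3.11.15, numpy 2.4.6 and pandas 2.3.3 were used.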

Additional observations from a re-analysis of the deposited data

How the results depend on the processing

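Of 464 member ratios recomputed under 8 alternatives, 458 moved by less than 1 SD of the difference between the clones at like counts. The SD was taken from the central 95% of that difference. Dropping the filter (64 ratios) or raising the floor to 50 counts (40 ratios) cannot change a gene's ratio, so those stayed the same by construction. Among the 15 ratios that reached 0.58 in size, none changed sign. The 6 ratios that moved further were IRF7 in clone 1 under either pseudocount and the 4 IFIT genes in clone 2 after subtraction of the neighbours' median. Smaller ratios did change sign under that subtraction, among them IFIT2 (0.33 to -0.18) and IFIT5 (0.32 to -0.19) in clone 2. That subtraction brought the members' median in clone 2 to 0.03, against 0.16. With values per kb, and likewise with a floor of 50 counts, 0 members were at least 2-fold higher in clone 1, 0 lower in clone 1 and 0 higher in clone 2, since IFI44L, HERC5 and IRF7 then fell below the floor and 20 members were left. A pseudocount of 5 left 1 member at least 2-fold higher in clone 2. With no filter, 1 member was at least 2-fold lower in clone 2 (TRIM22), and 3 were higher in clone 1 and 3 in clone 2, RSAD2 and EPSTI1 being the added ones, and these 3 added genes had under 5 counts in every group. Median-of-ratios rescaling, quantile normalization and a pseudocount of 0.5 left the counts and the medians close to those reported. Leaving out replicates could not be done with 1 mean per group. No paired analysis was possible because the table holds no value per library. Depth per library is unknown, and the 12 compared members under 50 counts, HERC5, IFI44L and IRF7 among them, rest on little signal.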

Other observations

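Of 16 genes more closely tied to interferon-gamma, 7 were compared. Their medians were 0.12 in clone 1 and 0.04 in clone 2, with 6 and 4 above control (49.2% and 49.5% of all genes compared). CD274, which encodes the checkpoint ligand PD-L1, had 98.01 counts per kb in clone 1, 105.42 in clone 2 and 79.93 in control. WARS1, a tryptophan tRNA ligase gene induced by interferon-gamma, had 35.69, 40.57 and 32.73. CIITA, the master regulator of MHC class II genes, stood below control in both clones, with 6.82 and 6.70 against 10.67 counts per kb and log2 ratios of -0.64 and -0.67. CXCL10, a chemokine gene, was listed at 0 in all 3 groups.

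Of the 6 genes of cap formation and methylation, 1 was above control in clone 1 and 2 were in clone 2. Among all genes compared, 49.2% and 49.5% were. None of the 6 was 1.5-fold off in clone 1 (6.93% of all genes higher, 4.94% lower) or clone 2 (9.76% and 7.23%). RNMT, the cap guanine methyltransferase gene, had 169.89, 175.24 and 175.17 counts per kb in clone 1, clone 2 and control, and CMTR2, which acts on the base after the first, had 29.00, 29.64 and 33.22. CMTR1, the interferon-induced enzyme that methylates the ribose of the first transcribed base, had 20.14, 21.86 and 24.00 counts per kb in clone 1, clone 2 and control, log2 ratios of -0.25 and -0.13.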
